A study of Mus musculus with 8 samples.

Results

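The genes described here are those of the mouse major histocompatibility complex (MHC) and of the proteins that load and switch on its products, measured in isolated hepatocytes of mice with and without the cannabinoid receptor CB1R in hepatocytes. They were chosen by name: every gene on the array whose symbol starts with H2-, and *B2m*, *Tap1*, *Tap2*, *Tapbp*, *Tapbpl*, *Nlrc5*, *Ciita* and *Cd74*. This gave 43 of the 21368 genes named on the array, 35 of them H2- symbols, carried by 53 probes. A further 15 of the 50 H2- symbols of the reference had no named probe, *H2-Ea*, *H2-Q3*, *H2-Q6*, *H2-Q9* and *H2-T22* among them.

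Hepatocytes came from untreated male mice of 12 to 14 weeks on a standard diet. The hCNR1-/- mice (strain label CNRO Alb-Cre) were bred from mice carrying Cre under the albumin promoter, which is active in hepatocytes, and CNR1 flox/flox mice. The hCNR1+/+ mice (strain label CNRO) were control littermates. Each genotype had 4 one-colour Agilent arrays, and the labels do not say that mice were pooled. The *Cnr1* probe was well above background on 0 of 4 arrays of either genotype, so the genotypes rest on the labels. All 8 arrays lay on 1 slide, with a row for each genotype, so that an effect of the slide row and one of the genotype cannot be told apart. Between 28.6% and 42.3% of spots were well above background, the fewest in hCNR1-/- replicate 4, which also had the lowest 75th percentile of intensity and the lowest mean correlation with its group (0.942). All 12 hepatocyte markers were well above background on all arrays.

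MHC class I molecules are cell surface proteins made of a heavy chain and beta-2 microglobulin, the product of *B2m*, that show peptides from inside the cell to CD8 T cells and natural killer cells. The peptides are cut by the proteasome, pumped into the endoplasmic reticulum by TAP1 and TAP2 and loaded with the help of tapasin (*Tapbp*). In mice the classical heavy chains are *H2-K1* and *H2-D1*, whereas the H2-Q, H2-T and H2-M genes code for the less variable, nonclassical ones. MHC class II molecules, made of alpha and beta chains such as those of *H2-Aa* and *H2-Ab1*, show peptides from outside the cell to CD4 T cells and are found mainly on macrophages, dendritic cells and B cells. NLRC5 and CIITA are the transactivators of class I and class II genes.

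*H2-Q4*, a nonclassical class I heavy chain gene, fell in hCNR1-/- hepatocytes, and no other member passed an adjusted p of 0.05 in either direction. The other tested heavy chain genes had log2 fold changes from −0.61 to 0.44 and the class I loading genes from −0.53 to 0.40. *H2-Ab1*, the class II beta chain gene, had a decrease of similar size that did not pass the threshold. Most other class II genes, and *Ciita*, were not well above background. Values are given as log2 signal relative to the 75th percentile of the array, and fold changes are log2 differences between hCNR1-/- and hCNR1+/+ means, tested with limma over 11072 genes with Benjamini-Hochberg adjustment.

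Of the 43 members, 26 had a probe that was well above background on 4 or more arrays and were tested, and 25 of these probes were so on all 8. At an adjusted p below 0.05, 1 of the 26 was lower (3.85%) and 0 were higher, against 1.3% lower and 2.94% higher among all tested genes. With both a fold change over 2 and an unadjusted p under 0.05, 2 members (7.69%) were lower, *H2-Q4* and *H2-Ab1*, against 3.75% of all tested genes, and 0 were higher, against 4.78%. The values of the genotypes did not overlap for 2 members lower and 2 members higher in hCNR1-/-, 7.69% each, against 5.04% and 12.7% of all tested genes. The median log2 fold change over the 26 members was 0.23 (range −1.98 to 0.44), beside 0.08 over all tested genes. This positive median shrank to 0.01 with quantile normalization, and it was −0.33 without scaling, where the median of all tested genes was itself −0.47.

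**Figure D1:**
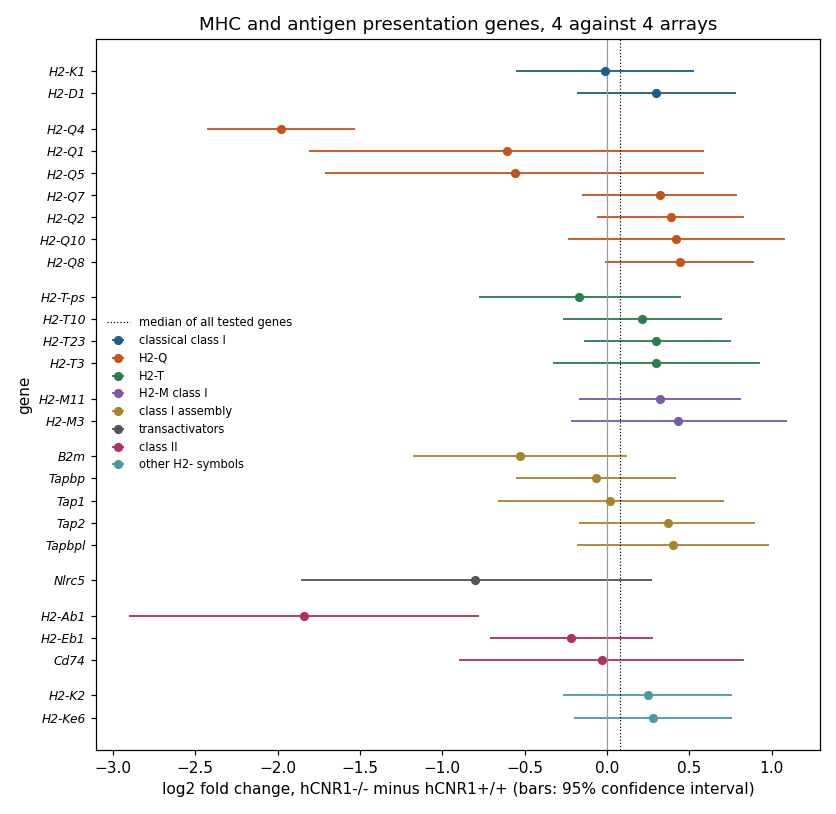
Log2 fold change (hCNR1-/- minus hCNR1+/+, horizontal axis) of the 26 tested MHC and antigen presentation genes, coloured by group, with 95% confidence intervals from limma (4 against 4 arrays). The intervals of *H2-Q4* (−2.43 to −1.53) and *H2-Ab1* (−2.90 to −0.78) lie below 0, those of the other 24 genes include it, and points right of 0 turn negative without scaling between arrays.

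*H2-Q4* had relative log2 signals of 5.86, 5.81, 5.40 and 5.73 in hCNR1+/+ replicates 1 to 4 and of 3.68, 3.89, 3.82 and 3.48 in hCNR1-/- replicates 1 to 4. Every hCNR1-/- array lay below every hCNR1+/+ array, with a gap of 1.51 between the nearest arrays. The mean went from 5.70 ± 0.21 (SD, n = 4) to 3.72 ± 0.18 (SD, n = 4), a 3.95-fold difference (log2 fold change −1.98, SE 0.20, adjusted p = 0.00486, limma). The exact two-sided permutation test of the 8 arrays gave p = 0.0286, the smallest that 4 against 4 arrays allow. By p the gene ranked 5 of 11072, and by size of decrease 75. The gene had 1 probe, well above background on all arrays. The adjusted p was 0.0803 with median scaling and 0.136 without scaling, with log2 fold changes of −2.03 and −2.54. With a block for replicate number, equal to the column on the slide, it was 0.0677.

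Heavy chain genes are close copies of each other and the probe sequences were not available here, so signal from a near-identical transcript cannot be told apart from that of the named gene. To remove the scaling, *H2-Q4* was also set against the median of the other 14 tested heavy chain genes on the same array. On each array this median lay midway between *H2-Q5* and *H2-Q8*, so it rests on those genes. *H2-Q5* itself ran from 5.10 to 7.79 among the hCNR1+/+ arrays. In hCNR1+/+ replicates 1 to 4 this difference was 0.15, −0.61, −1.04 and −1.64, and in hCNR1-/- replicates 1 to 4 it was −2.42, −2.73, −2.51 and −3.17. All 4 hCNR1-/- values lay below all 4 hCNR1+/+ values, and the means differed by −1.92. *H2-Q4* thus changed unequally with this median, whatever the scaling between arrays.

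The sequences before the start of 4 heavy chain genes are shown to set the gene that fell beside 3 related genes that were not called. Each is the 250 bases before the annotated start, 5′ to 3′ in the direction of the gene, from the RefSeq table of the build GRCm38.p6, all on the plus strand. Capitals mark letters that match 1 of 4 motifs on either strand: the interferon response core TTTCNNTTC, the Y box CCAAT, the cyclic AMP response element half-site TGACG, or the NF-kB consensus, whose 2 matches in *H2-Q4* and in *H2-D1* overlap each other. These motifs are known from the enhancers that interferon, NF-kB and NLRC5 act through at class I genes.

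H2-Q4 (chr17:35379367-35379616): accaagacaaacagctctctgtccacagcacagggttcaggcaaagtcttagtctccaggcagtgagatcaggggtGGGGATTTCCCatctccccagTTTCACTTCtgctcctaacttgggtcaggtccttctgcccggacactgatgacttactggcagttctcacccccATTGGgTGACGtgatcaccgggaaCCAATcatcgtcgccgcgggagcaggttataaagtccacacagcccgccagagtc

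H2-Q2 (chr17:35342057-35342306): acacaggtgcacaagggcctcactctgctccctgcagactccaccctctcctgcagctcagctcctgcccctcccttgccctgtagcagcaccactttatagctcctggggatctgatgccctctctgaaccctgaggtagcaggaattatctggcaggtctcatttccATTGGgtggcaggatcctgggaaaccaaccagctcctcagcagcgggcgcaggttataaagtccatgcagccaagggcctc

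H2-Q7 (chr17:35438905-35439154): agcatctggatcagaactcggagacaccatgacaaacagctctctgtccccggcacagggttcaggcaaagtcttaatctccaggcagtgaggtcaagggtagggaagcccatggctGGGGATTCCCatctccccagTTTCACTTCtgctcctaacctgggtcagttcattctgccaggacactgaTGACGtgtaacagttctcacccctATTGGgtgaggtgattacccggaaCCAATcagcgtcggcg

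H2-D1 (chr17:35262844-35263093): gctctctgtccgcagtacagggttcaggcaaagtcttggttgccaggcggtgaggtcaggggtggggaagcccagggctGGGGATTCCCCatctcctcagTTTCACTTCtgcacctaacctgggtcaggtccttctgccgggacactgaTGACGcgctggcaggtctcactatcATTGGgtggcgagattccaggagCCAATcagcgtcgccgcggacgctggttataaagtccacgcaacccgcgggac

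Aligned end to end with free end gaps, the *H2-Q4* sequence was identical to that of *H2-Q7* at 83.3% of 227 columns and to that of *H2-D1* at 80.1% of 251 columns. It was identical to that of *H2-Q2* at 61.3% of 269 columns. In *H2-Q4* the interferon response core started 153 bases before the gene start, the Y box matches 79 and 55 bases and the half-site 73 bases before it. In *H2-D1* the core lay 150 bases, the Y box matches 76 and 53 bases and the half-site 101 bases before the start. The *H2-Q2* window held a Y box match and none of the other 3 motifs.

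Among 27025 promoters, 6.34% held the interferon response core, 34.5% the Y box, 17.9% the half-site and 7.01% the NF-kB consensus in this window. Of the 16 tested members with a sequence in the table, 6 held the core, 14 the Y box, 7 the half-site and 6 the NF-kB consensus. The 6 with the core were *H2-Q4*, with a log2 fold change of −1.98, and *H2-K1*, *H2-D1*, *H2-Q7*, *H2-Q10* and *H2-M3*, with fold changes from −0.01 to 0.43. A match describes letters only. The tested members *H2-Ab1*, *H2-Q1*, *H2-Q5*, *H2-Q8*, *H2-K2*, *H2-T10*, *Cd74*, *Tap2*, *Tapbpl* and *Nlrc5* had no entry in the table.

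All 7 members of the H2-Q family with a probe were well above background on all arrays. The family includes the genes of Qa-2, a nonclassical molecule held at the membrane by a lipid anchor, and *H2-Q10*, which codes for a class I protein secreted by the liver. In the order of the reference assembly GRCm38.p6, *H2-Q4* lies between *H2-Q2* and *H2-Q5* among the genes measured. *H2-Q4* was the only member of the family called.

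*H2-Q2* had relative log2 signals of 7.48, 7.91, 7.75 and 8.07 in hCNR1+/+ and of 8.11, 8.25, 8.18 and 8.21 in hCNR1-/- replicates 1 to 4. The hCNR1-/- arrays all lay above the hCNR1+/+ arrays, the nearest of them by 0.05. The log2 fold change was 0.39 (SE 0.20, adjusted p = 0.291, limma), and a second probe gave 0.33. *H2-Q8*, one of the Qa-2 genes, had values of 6.31, 6.78, 6.58 and 6.95 in hCNR1+/+ and of 7.09, 7.15, 7.07 and 7.08 in hCNR1-/-. Here too the groups did not overlap, by 0.12, with a log2 fold change of 0.44 (SE 0.20, adjusted p = 0.242, limma). Both genes had an exact permutation p of 0.0286, and both fold changes turned negative without scaling, to −0.17 and −0.12.

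*H2-Q7*, another Qa-2 gene, and *H2-Q10* had log2 fold changes of 0.32 (adjusted p = 0.416) and 0.42 (adjusted p = 0.446) by limma, and the second probe of *H2-Q10* gave 0.29. Without scaling these became −0.24 and −0.14, and with quantile normalization that of *H2-Q7* was −0.0018. Relative to the median of all genes in the same unscaled fit, *H2-Q2*, *H2-Q7*, *H2-Q8* and *H2-Q10* stood 0.23 to 0.36 above it, and *H2-Q4* stood at −2.07. Scaling between arrays leaves these distances unchanged by construction. *H2-Q1* had a log2 fold change of −0.61 that came from 1 array: its hCNR1-/- signals were 2.60, 2.19, 1.96 and −0.21, and without replicate 4 the fold change was 0.0015. *H2-Q5* ranged from 5.10 to 7.79 in hCNR1+/+ and from 5.12 to 6.22 in hCNR1-/- (log2 fold change −0.56, adjusted p = 0.56, limma). The hCNR1+/+ range of *H2-Q5* enclosed every hCNR1-/- value, and without hCNR1+/+ replicate 4 its fold change was −0.07.

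**Figure D2:**
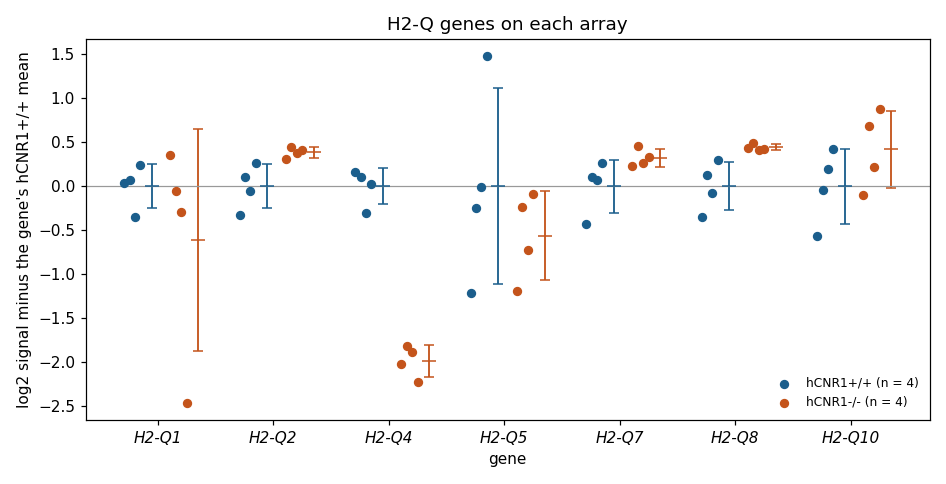
Relative log2 signal of the 7 H2-Q genes on each array, as the difference from the mean of the gene's 4 hCNR1+/+ arrays (vertical axis). Points are arrays and bars show mean ± SD. The 4 hCNR1-/- points of *H2-Q4* sit apart from the rest, while those of *H2-Q2* and *H2-Q8* lie slightly above the hCNR1+/+ points, an order that depends on the scaling between arrays.

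The classical heavy chain genes had small differences. *H2-K1*, whose probe was printed on 10 spots, had signals of 9.52, 9.93, 10.002 and 10.35 in hCNR1+/+ and of 9.63, 10.29, 9.85 and 9.99 in hCNR1-/- replicates 1 to 4. The groups overlapped fully. The SD between the 10 spots of an array was at most 0.047, against 0.34 (SD, n = 4) between hCNR1+/+ arrays. The log2 fold change was −0.01 (95% confidence interval −0.55 to 0.53, adjusted p = 0.986, limma), and a second probe gave 0.15. *H2-D1* had signals of 7.25, 7.83, 7.57 and 7.88 in hCNR1+/+ and of 8.07, 8.05, 7.91 and 7.71 in hCNR1-/-. Only hCNR1-/- replicate 4 fell within the hCNR1+/+ range (log2 fold change 0.30, 95% confidence interval −0.18 to 0.78, adjusted p = 0.447, limma). For both genes the interval leaves out a 2-fold change in either direction.

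In the H2-T group 4 of 5 genes were tested. *H2-T23*, which codes for Qa-1, a ligand of receptors on natural killer cells, had a log2 fold change of 0.30 (SE 0.20, adjusted p = 0.414, limma). *H2-T3*, the gene of the thymus leukaemia antigen, and *H2-T10* had 0.30 and 0.21, and the pseudogene *H2-T-ps*, well above background on 2 arrays of each genotype, had −0.17. The fold change of *H2-T23* was −0.04 with quantile normalization, and those of *H2-T23*, *H2-T3* and *H2-T10* were −0.34 to −0.25 without scaling. Of the 10 H2-M class I genes 2 were tested: *H2-M3*, which presents formylated peptides, with 0.43, and *H2-M11* with 0.32, again negative without scaling. *H2-K2*, a transcribed pseudogene, had 0.25, and *H2-Ke6*, which lies in the region but codes for a steroid dehydrogenase, had 0.28. No gene of these groups was called, and all their genotypes overlapped.

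The class I heavy chain genes, grouped by symbol, came to 15 tested genes. Of these, 10 had a positive and 5 a negative log2 fold change, with a median of 0.30 beside 0.08 over all tested genes. The 15 include the pseudogene *H2-T-ps* and leave out the pseudogene *H2-K2* (0.25). Also among the 15 is *H2-Q5*, whose probe is named for a noncoding transcript. Close copies can share signal, so they are not 15 separate readings. With scaling left out, the 10 positive values turned negative. They stood 0.13 to 0.36 above the median of all tested genes. Scaling shifts all genes of an array alike, so it cannot change this distance, and the equal values without it are no check. Quantile normalization can change the distance. There the 10 values ran from −0.04 for *H2-T23* to 0.37 for *H2-M3*, beside a median of −0.01 over all tested genes.

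*B2m* had signals of 8.82, 8.80, 9.29 and 9.90 in hCNR1+/+ and of 8.34, 8.73, 8.57 and 9.04 in hCNR1-/- replicates 1 to 4. The hCNR1-/- arrays were lower on average, and only replicate 4 reached into the hCNR1+/+ range. The log2 fold change was −0.53 (95% confidence interval −1.18 to 0.12, adjusted p = 0.322, limma). It stayed negative under all 23 alternative settings, from −1.09 to −0.30, with adjusted p from 0.0731 to 0.826. On the same array *B2m* stood lower against *H2-K1* by 0.52 in hCNR1-/- than in hCNR1+/+, and these differences overlapped between genotypes.

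The peptide pump genes did not pass the test. *Tap1*, also printed on 10 spots, had signals of 0.07, −1.16, −0.22 and −0.08 in hCNR1+/+ and of −0.55, 0.01, −0.65 and −0.12 in hCNR1-/- (log2 fold change 0.02, 95% confidence interval −0.66 to 0.71, adjusted p = 0.976, limma). The hCNR1+/+ range enclosed all hCNR1-/- values. *Tap2* had 4.73, 4.25, 4.27 and 3.90 in hCNR1+/+ and 4.58, 4.97, 4.71 and 4.36 in hCNR1-/- (log2 fold change 0.37, SE 0.24, adjusted p = 0.409, limma). Of its hCNR1-/- arrays 1 lay above the whole hCNR1+/+ range.

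*Tapbp*, the gene of tapasin, had 4.34, 4.17, 4.55 and 4.61 in hCNR1+/+ and 4.21, 4.65, 4.03 and 4.51 in hCNR1-/- (log2 fold change −0.07, SE 0.22, adjusted p = 0.884, limma). Its genotypes were interleaved. *Tapbpl*, which codes for the peptide editor TAPBPR, had a log2 fold change of 0.40 (adjusted p = 0.404, limma), with hCNR1-/- replicates 1 to 3 at 2.21, 2.27 and 2.07 and replicate 4 at 1.27. Without hCNR1-/- replicate 4 the fold change was 0.63 (adjusted p = 0.0376), so that the call depended on that array.

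*Nlrc5* had signals of 2.66, 1.74, 2.18 and 1.31 in hCNR1+/+ and of 1.24, 1.76, 1.90 and −0.19 in hCNR1-/- replicates 1 to 4. The lowest value belonged to the dimmest array, hCNR1-/- replicate 4. The log2 fold change was −0.80 (95% confidence interval −1.86 to 0.27, adjusted p = 0.367, limma) and ran from −1.35 to −0.34 over the alternatives. Its second probe was well above background on 1 hCNR1-/- array only. *Ciita* was well above background on 0 of 8 arrays.

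Of the 10 class II genes, 3 were tested: *H2-Ab1*, *H2-Eb1* and *Cd74*. All 3 had negative log2 fold changes, from −1.84 to −0.03, of which that of *Cd74* was 0.02 with quantile normalization, and 0 passed an adjusted p of 0.05. *H2-Aa*, the partner of *H2-Ab1*, and the peptide loading genes *H2-DMa*, *H2-DMb1*, *H2-DMb2* and *H2-Oa* were well above background on 0 arrays. *H2-Eb2* was so on 1 hCNR1+/+ array and *H2-Ob* on 1 hCNR1-/- array.

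*H2-Ab1* had signals of 2.44, 3.01, 3.55 and 4.69 in hCNR1+/+ and of 1.03, 1.84, 1.21 and 2.24 in hCNR1-/- replicates 1 to 4. The hCNR1-/- arrays all lay below the hCNR1+/+ arrays, the nearest of them by 0.20, and replicate 4 was the highest of both genotypes. Before scaling, the intensities of hCNR1-/- replicates 1 to 4 were 253.67, 285.18, 217.61 and 138.06, the lowest in replicate 4. The mean went from 3.42 ± 0.96 (SD, n = 4) to 1.58 ± 0.56 (SD, n = 4), a 3.58-fold difference (log2 fold change −1.84, SE 0.47, unadjusted p = 0.00323, adjusted p = 0.0599, limma). The exact permutation p was 0.0286. The second probe had 2.07, 2.77, 3.21 and 4.30 in hCNR1+/+ and 0.82, 1.60, 0.80 and 1.89 in hCNR1-/-, with the same lack of overlap and a log2 fold change of −1.81. Both probes read the same RNA on the same arrays and are not separate replicates.

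The *H2-Ab1* call moved with the arrays kept, and with 1 array left out the adjusted p ran from 0.0345 to 0.159, below 0.05 in 1 of the 8 fits. Without hCNR1-/- replicate 4 the log2 fold change was −2.06 (adjusted p = 0.0345, limma), without hCNR1+/+ replicate 4 it was −1.42 (adjusted p = 0.0835), and without both it was −1.64 (adjusted p = 0.0161).

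*H2-Eb1*, a second class II beta chain gene, had 0.12, 0.79, 0.25 and 0.67 in hCNR1+/+ and 0.12, 0.23, 0.14 and 0.48 in hCNR1-/- (log2 fold change −0.22, SE 0.22, adjusted p = 0.604, limma). The ranges overlapped. *Cd74*, the gene of the invariant chain that escorts class II molecules, had −1.33, −0.62, −0.84 and 0.07 in hCNR1+/+ and −1.0, −1.16, −0.94 and 0.25 in hCNR1-/- (log2 fold change −0.03, 95% confidence interval −0.90 to 0.83, adjusted p = 0.973, limma). In relative signal replicate 4 was the highest of both genotypes for *Cd74*, as for *H2-Ab1*. In hCNR1-/- this order came with the scaling, since before it replicate 4 had the lowest intensity of both genes. In hCNR1+/+ it came with the scaling for *Cd74* only, whose intensity was 65.22 in replicate 4 and 90.87 in replicate 2. The hCNR1+/+ intensity of *H2-Ab1* was highest in replicate 4, at 1600.85. On the same array *H2-Ab1* stood above *Cd74* by 4.10 ± 0.48 (SD, n = 4) in hCNR1+/+ and by 2.29 ± 0.48 (SD, n = 4) in hCNR1-/-, so their measured signals did not move by equal amounts. *Cd74* was dim, with intensities from 34.92 to 90.87, beside 138.06 to 1600.85 for *H2-Ab1*, and *H2-Eb1* ran from 40.80 to 240.98. Near the background a fall can be read as smaller than it is, so unequal changes of the RNA cannot be concluded.

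Markers of Kupffer cells, the resident macrophages of the liver, which carry class II molecules, were lower in hCNR1-/- on average, as *H2-Ab1* was. Of 14 such markers 10 were tested, 7 of them well above background on all arrays. All 10 had negative log2 fold changes, with a median of −0.78, beside 4809 negative ones among all 11072 tested genes. Of the 10, 1 had an adjusted p below 0.05, against 1.3% lower among all tested genes. Their mean signal ran from 1.25 to 2.56 in hCNR1+/+ and from 0.29 to 1.2 in hCNR1-/- arrays, while *Timd4* and *Cd163* were well above background on 0 arrays. The difference between *H2-Ab1* and this mean on the same array was 1.19, 1.12, 1.95 and 2.13 for the hCNR1+/+ arrays and 0.27, 1.55, 0.01 and 1.34 for the hCNR1-/- arrays, in order of replicate number. These differences overlapped between genotypes. In hCNR1-/- replicates 1 to 4 the marker mean was 0.76, 0.29, 1.2 and 0.9, an order of arrays unlike that of *H2-Ab1*. The part of Kupffer cells in the *H2-Ab1* values was not tested, and in bulk RNA fewer cells of a type and less RNA per cell cannot be told apart.

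Other cells that carry class II molecules had few detected markers. Of 9 dendritic cell markers 2 were tested, and *Itgax*, *Xcr1*, *Clec9a*, *Cd209a*, *Ccr7* and *Batf3* were well above background on 0 arrays. Of 7 B cell markers 0 were tested, and *Ms4a1*, *Cd79a*, *Cd79b* and *Fcmr* were well above background on 0 arrays. Of 9 T and natural killer cell markers 3 were tested, with a mean signal from 3.57 to 4.01 in hCNR1+/+ and from 3.98 to 5.30 in hCNR1-/- arrays, and *Cd3d*, *Cd3g*, *Klrb1c*, *Ncr1* and *Gzma* were well above background on 0 arrays. Of 10 endothelial markers 9 were tested (0.24 to 1.05 in hCNR1+/+ and 0.26 to 0.53 in hCNR1-/-), and of 7 stellate cell markers 1.

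**Figure D3:**
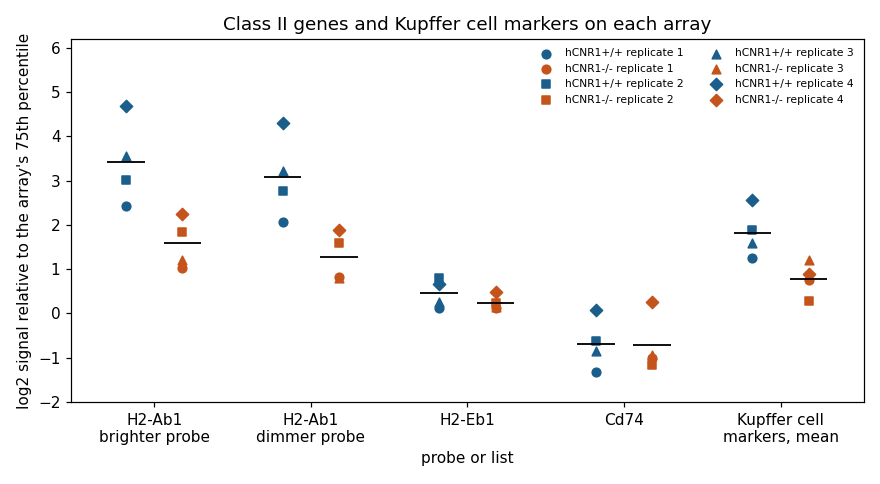
Log2 signal relative to the array's 75th percentile (vertical axis) for both *H2-Ab1* probes, *H2-Eb1*, *Cd74* and the mean of the 10 tested Kupffer cell markers, by array, with a symbol for each replicate number and lines for group means. The genotypes do not overlap for either *H2-Ab1* probe or for the Kupffer cell mean, and they overlap for *H2-Eb1* and *Cd74*.

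Of the 17 members not tested, 13 were well above background on 0 of 8 arrays with every probe. These were *Ciita*, *H2-Aa*, *H2-DMa*, *H2-DMb1*, *H2-DMb2*, *H2-Oa*, *H2-M1*, *H2-M5*, *H2-M10.1*, *H2-M10.2*, *H2-M10.3*, *H2-M10.4* and *H2-M10.6*. The other 4 were so on 1 array: *H2-Eb2* and *H2-M9* on an hCNR1+/+ array, and *H2-Ob* and *H2-T24* on an hCNR1-/- array. No fold change is given for them.

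The genes that feed the class I and class II routes were read from lists of 49 genes outside the members, 47 of them with a probe and 39 tested. At an adjusted p below 0.05, 1 of the 39 was lower (*Ctss*) and 1 higher (*Canx*), against 1.3% lower and 2.94% higher among all tested genes, and the median log2 fold change was 0.01, beside 0.08 over all tested genes. For the immunoproteasome, which cuts peptides for class I molecules, 6 of 7 genes were tested and 0 called. Its catalytic subunits *Psmb8*, *Psmb9* and *Psmb10* had log2 fold changes of 0.24, −0.03 and 0.43 (adjusted p = 0.485, 0.952 and 0.32, limma).

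Among 7 tested genes of heavy chain folding and peptide trimming, *Canx*, the gene of calnexin, a chaperone that holds new heavy chains, rose. Its signals were 3.06, 2.72, 2.72 and 3.03 in hCNR1+/+ and 3.81, 3.60, 4.05 and 3.81 in hCNR1-/-. All hCNR1-/- arrays lay above all hCNR1+/+ arrays (log2 fold change 0.94, SE 0.20, adjusted p = 0.0362, limma). The adjusted p was below 0.05 under 8 of 23 alternatives. It ran up to 0.129 when 1 array was left out and was 0.878 without scaling, where the fold change was 0.38. *Calr*, the gene of the related chaperone calreticulin, had 0.24, and *Pdia3*, the gene of a disulfide isomerase of the loading complex, had −0.28, neither called.

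For class II processing 8 of 8 genes were tested. *Ctss*, the gene of cathepsin S, which trims the invariant chain in antigen presenting cells, fell. Its signals were −0.41, −0.13, −0.04 and 0.28 in hCNR1+/+ and −2.13, −2.35, −2.10 and −1.29 in hCNR1-/-, without overlap (log2 fold change −1.89, SE 0.27, adjusted p = 0.0124, limma). The probe was well above background on 4 hCNR1+/+ and 2 hCNR1-/- arrays, and with normexp background correction the fold change was −0.60 (adjusted p = 0.325). The adjusted p was below 0.05 under 16 of 22 alternatives, and among the others it was 0.0811 without scaling, 0.0783 without a filter on dim probes and 0.0677 with the replicate block. Without hCNR1+/+ replicate 3 it was 0.0567 and without hCNR1-/- replicate 3 it was 0.0508. The Kupffer cell markers given above were lower in hCNR1-/- on average too, and their part in the *Ctss* values was not tested. *Ctsd*, the gene of the lysosomal protease cathepsin D, had 7.5, 7.67, 7.42 and 7.51 in hCNR1+/+ and 8.23, 8.08, 7.94 and 8.48 in hCNR1-/-. The groups did not overlap (log2 fold change 0.65, SE 0.20, adjusted p = 0.0926, limma). The fold change was 0.33 with quantile normalization and with the mean of the gene's probes, and 0.10 without scaling. The adjusted p was 0.0459 without hCNR1-/- replicate 4.

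All 5 tested MHC-like genes outside the region had negative log2 fold changes, from −0.93 for *Cd1d1*, which presents lipids, to −0.03 for *Procr*, and 0 were called. Several of these values leaned on hCNR1-/- replicate 4, the dimmest array. There *Cd1d1* was at 0.43, beside 2.99 to 3.69 on the other hCNR1-/- arrays. *Azgp1* was at 5.98 beside 7.61 to 7.89, and *Hfe* at 2.60 beside 3.43 to 3.72. *Fcgrt* went the other way, with its highest hCNR1-/- value, 4.69, on that array. Of 15 genes of transcription and interferon signalling 12 were tested and 0 called. *Jak2*, a kinase of the interferon gamma receptor, had 1.06 (unadjusted p = 0.0376, adjusted p = 0.201, limma), and *Nfyb*, a subunit of the factor that binds the Y box, had −0.77 (adjusted p = 0.197) with no overlap between genotypes. *Jak2* was 0.65 without hCNR1+/+ replicate 4 and 0.41 without replicate 4 of both genotypes. *Nfyb* was −0.48 without hCNR1-/- replicate 4 and −0.39 with the mean of its probes. *Irf1*, an interferon-induced activator of class I genes, had 0.25 (adjusted p = 0.531). Of 4 co-signalling genes at the cell surface, only *Cd274* was tested, with 0.05.

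**Figure D4:**
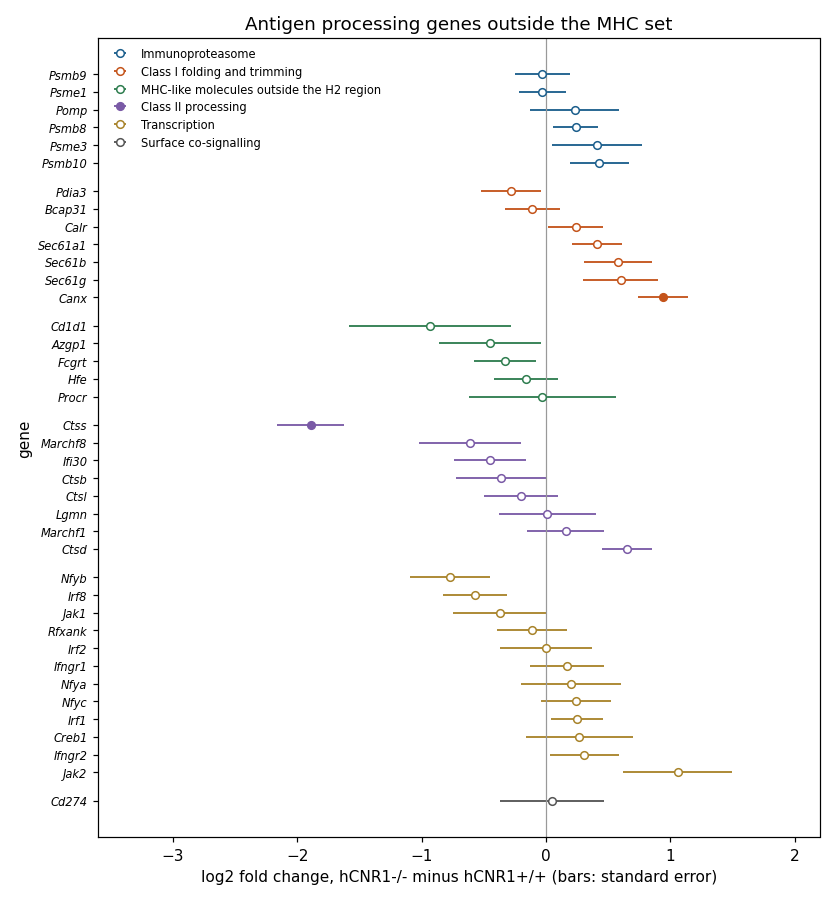
Log2 fold change (hCNR1-/- minus hCNR1+/+, horizontal axis, bars are standard errors from limma) of the 39 tested antigen processing genes outside the MHC set, grouped by role. Filled points have an adjusted p below 0.05: *Ctss* at −1.89 and *Canx* at 0.94.

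The plot of fold changes across settings sets 8 members side by side. *H2-Q4*, *H2-Ab1*, *B2m* and *Nlrc5* were negative under all 23 alternatives, whereas *H2-Q8*, *H2-Q2*, *H2-D1* and *H2-K1* had values on both sides of 0.

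**Figure D5:**
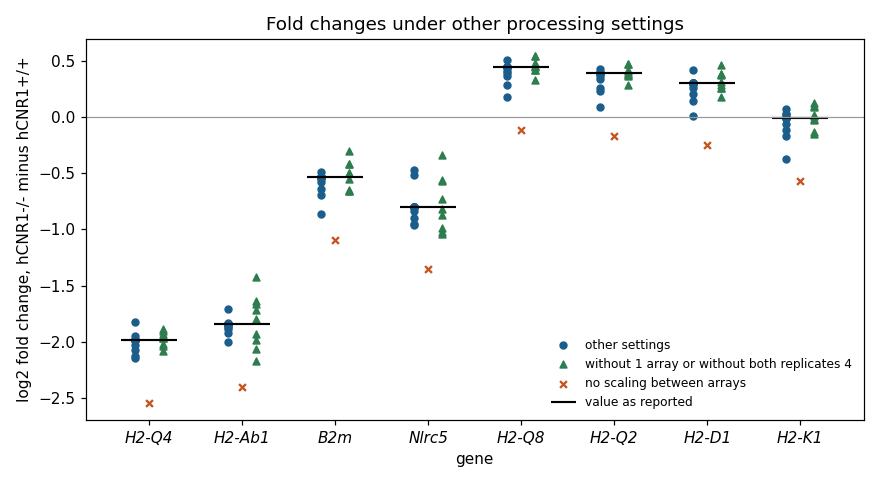
Log2 fold change (vertical axis) of 8 members under each processing setting: black lines give the values as reported, circles other settings, triangles fits with arrays left out and crosses the fit without scaling. *H2-Q4* stays between −2.54 and −1.82 and *H2-Ab1* between −2.40 and −1.42, while *H2-Q8*, *H2-Q2* and *H2-D1* cross 0 without scaling.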

How the data were processed

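Total RNA of isolated hepatocytes was labelled and hybridised to 1-colour Agilent mouse arrays, 4 per genotype, with groups taken from the sample labels. A figure legend of the study gives n = 3 per genotype and does not name the mice, so all 8 labelled arrays were used. The authors deposited, for each array, spot intensity values as written by Feature Extraction version 12.0.3.1, which corrects the background within an array and does not scale between arrays. A second deposited value, a score for each spot, differed by at most 0.005 from the z-score of the log intensity on its array. Each intensity was put on the log2 scale and set relative to the 75th percentile of its array, taken over 59305 non-control spots. Outlier spots were dropped before the spots of a probe were averaged. RefSeq names of GRCm38.p6, matched by unversioned accession, were found for 28331 of 55681 probes. The array design names the older build mm9, so array coordinates were not used. Each gene was read by its brightest probe among those that were well above background on 4 or more arrays.

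R version 4.3.3 and limma version 3.58.1 (lmFit, eBayes) were used to compare genotypes, and p-values were adjusted by Benjamini-Hochberg over 11072 genes. For single genes an exact two-sided permutation test used all 70 ways to place 4 of the 8 arrays in a group. The fit was tested on simulated data. The members, gene lists and tests were chosen with earlier results of these data known, *H2-Q4* and the Kupffer cell markers among them, so these are not independent support. Genes were given in full where called by either threshold, where genotypes did not overlap, or where they are core genes of the pathway. With 4 arrays a genotype the precision is limited, and for dim probes the background limits it further. P-values measure only the spread between these samples.

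Alternatives were other scalings, normexp, the deposited scores, other filters and probe rules, array weights, other variance models, the replicate number as a block, and fits with an array left out. Leaving out replicate 4 of both genotypes was chosen after seeing the data. The replicate numbers are also slide columns. Taken over the 11072 genes they did not pair the samples, as deviations of same-numbered arrays correlated at 0.21, −0.16, −0.05 and 0.02. Single genes can differ from this.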

Additional observations from a re-analysis of the deposited data

Results flagged for a closer look

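*Cd74* in hCNR1-/- replicate 4 had a relative log2 signal of 0.25, while the other 3 arrays of that genotype lay between −1.16 and −0.94. It stood out because its gap to the nearest array was 0.843 of the range of the group, above Dixon's 95% critical value for 4 samples. It was the only such case among 52 groups of 4 arrays examined, where chance alone marks about 1 in 20. Before scaling, the *Cd74* intensities of hCNR1-/- replicates 1 to 4 were 61.91, 35.52, 49.11 and 34.92, so the flagged array had the lowest. Replicate 4 was also the dimmest array of hCNR1-/-. The relative value sets its intensity against a 75th percentile of 29.3, beside 79.4 to 123.9 on the other hCNR1-/- arrays. In hCNR1+/+, replicate 4 had the highest relative signal for *Cd74* too, at 0.07. This order also came with the scaling, since before it the intensity was 65.22 in replicate 4 and 90.87 in replicate 2.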

How the results depend on the processing

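The decrease of *H2-Q4* kept its direction under all 23 alternatives, from −2.54 to −1.82, and its adjusted p was below 0.05 under 20. It was 0.0803 with median scaling, 0.136 without scaling and 0.0677 with the replicate block, under each of which 0 members were lower at an adjusted p below 0.05, in place of 1. The cause was not tested. The block kept *H2-Q4* at −1.98 and *H2-Ab1* at −1.84 (adjusted p = 0.0746), and it leaves fewer degrees of freedom. By limma the unadjusted p of *H2-Ab1* was smaller with the block, 0.000671 in place of 0.00323, though its adjusted p was larger. That of *H2-Q4* was larger with the block, 8.11e-05 in place of 2.5e-06. The replicate numbers are also slide columns, so the block is one on the column too. With each array left out, 1 to 2 members were lower and 0 to 1 higher at that threshold. The second lower member was *H2-Ab1*, which also made 2 lower members with every probe tested (adjusted p = 0.0446), with array weights (0.00484) and without replicate 4 of both genotypes (0.0161). Array weights called 2 members higher (*H2-Q8* and *Tapbpl*), and leaving out replicate 4 of both genotypes called 1 (*Tapbpl*). At a fold above 2 and p below 0.05, 2 members were lower under every alternative, and 0 were higher except 1 without a filter on dim probes (*H2-Ob*).

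The median log2 fold change of the tested members was 0.01 with quantile normalization and −0.33 without scaling, against 0.14 to 0.23 with an array left out. Values near 0 changed sign. Without scaling, where the median of all tested genes was −0.47 in place of 0.08, log2 fold changes were −0.25 for *H2-D1*, −0.31 for *H2-K2*, −0.28 for *H2-Ke6*, −0.23 for *H2-M11*, −0.12 for *H2-M3*, −0.14 for *H2-Q10*, −0.17 for *H2-Q2*, −0.24 for *H2-Q7*, −0.12 for *H2-Q8*, −0.34 for *H2-T10*, −0.25 for *H2-T23*, −0.26 for *H2-T3*, −0.53 for *Tap1*, −0.19 for *Tap2* and −0.15 for *Tapbpl*. Quantile normalization gave 0.02 for *Cd74*, −0.07 for *H2-K2*, −0.0018 for *H2-Q7* and −0.04 for *H2-T23*. *Tap1* was −0.14 with the percentile over bright probes, −0.01 with array weights, −0.09 with the deposited scores and −0.02 with median scaling. *H2-K1* was 0.03 with array weights and with the deposited scores, 0.07 with the mean of its probes and 0.10 without replicate 4 of both genotypes. *H2-Q1* was 0.08 with array weights and without both replicates 4. With an array left out, values ran from −0.35 to 0.22 for *Cd74*, −0.15 to 0.12 for *H2-K1*, −0.94 to 0.0015 for *H2-Q1*, −0.25 to 0.16 for *Tap1* and −0.17 to 0.04 for *Tapbp*. The probes of *Ctss* and *H2-T-ps* were not well above background on every array, which limits their values.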
